A study of Mus musculus with 6 samples.

Results

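A set of 1458 accessible regions was already open in wild-type distal forelimb buds and gained further signal in *Hox13*-/- buds. The regions were taken from 61954 ATAC-seq peaks, all on the 19 autosomes, where the transposase Tn5 inserts sequencing adapters into open chromatin. A peak was a member when 4 conditions held: its mean rLog value in *Hox13*-/- exceeded the wild-type mean by at least 0.58, both mutant libraries lay above both wild-type libraries, its wild-type mean was at least 5, and its midpoint lay over 1 kb from every annotated transcription start site. The rLog value is a log2-scale signal that the authors scaled for library size and shrank towards each peak's mean, so a difference of 0.58 corresponds to 1.49-fold on that shrunken scale. Of the 61954 peaks, 13289 met the last 2 conditions and are called open distal peaks here, and the members were 1458 of them. The members were therefore chosen by the contrast that is described, and their difference between genotypes is given without a test.

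The 4 libraries, 2 wild-type (WT) and 2 *Hox13*-/-, were made from the distal part of E11.5 forelimb buds, of embryos on a mixed C57Bl/6 x 129 background. The mutants carried null alleles of both *Hoxa13* (*Hoxa13Str*) and *Hoxd13* (*Hoxd13lacZ*) in every cell, so nothing restricts the loss to the limb. Each library was made from pooled left and right buds of 1 embryo, with no sorting of cell types, so more cells with an open site and more opening per cell cannot be told apart. A further 2 libraries, of proximal limb buds, were not analysed here.

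HOXA13 and HOXD13 are homeodomain transcription factors that specify the autopod, the future hand and foot, and that are needed for the switch from the early to the late limb programme. Their binding sites contain an AT-rich motif with the letters ATAAA. Distal peaks of accessibility often mark enhancers, the regulatory elements at which transcription factors gather away from the promoter. Homeodomain proteins of other classes recognise the core ATTA, TALE homeodomain proteins of the MEIS family recognise TGACAG, and nuclear receptors recognise AGGTCA.

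The sequences of 9 members and 1 fallen peak are printed first because the motif content described further on can be read in them. Each line gives the central 200 bases on the plus strand of mm10, with coordinates counted from 1. Capitals mark, on either strand, the homeodomain core ATTA, the homeodomain palindrome TAATTA that contains it, the nuclear receptor motif AGGTCA, the MEIS motif TGACAG and the HOX13-type motif CNATAAA. The first 4 members had the largest differences, the next 2 the highest wild-type means, and the seventh the largest difference near a gene of the proximal limb. The member between *Mtx2* and *Hnrnpa3*, the one beside *Hoxa13* and the fallen peak were chosen after their values were seen.
intron of Dab1, chr4:104550702-104550901: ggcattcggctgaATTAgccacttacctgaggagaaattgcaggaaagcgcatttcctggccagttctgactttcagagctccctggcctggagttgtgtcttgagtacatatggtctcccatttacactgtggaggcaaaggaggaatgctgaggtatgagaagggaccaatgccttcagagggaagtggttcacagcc
upstream of Agtr1b, chr3:20986203-20986402: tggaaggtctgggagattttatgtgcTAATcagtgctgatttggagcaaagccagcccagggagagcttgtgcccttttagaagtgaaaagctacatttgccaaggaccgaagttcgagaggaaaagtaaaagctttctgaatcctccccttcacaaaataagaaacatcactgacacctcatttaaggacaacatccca
intron of Tgfbr3, chr5:107251971-107252170: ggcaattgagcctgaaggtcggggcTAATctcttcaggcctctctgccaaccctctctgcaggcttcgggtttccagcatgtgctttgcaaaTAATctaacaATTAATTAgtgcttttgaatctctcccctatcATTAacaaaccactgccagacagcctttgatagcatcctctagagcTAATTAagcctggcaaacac
upstream of Castor2, chr5:133482527-133482726: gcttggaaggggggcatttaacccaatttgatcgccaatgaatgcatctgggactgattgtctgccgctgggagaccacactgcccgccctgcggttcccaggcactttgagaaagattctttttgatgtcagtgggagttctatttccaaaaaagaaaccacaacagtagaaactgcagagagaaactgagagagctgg
upstream of Nfe2l3, chr6:51196902-51197101: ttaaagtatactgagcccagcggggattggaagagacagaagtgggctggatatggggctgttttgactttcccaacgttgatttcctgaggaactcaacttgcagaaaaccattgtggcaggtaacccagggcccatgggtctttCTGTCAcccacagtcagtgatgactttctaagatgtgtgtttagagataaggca
intron of Dner, chr1:84549743-84549942: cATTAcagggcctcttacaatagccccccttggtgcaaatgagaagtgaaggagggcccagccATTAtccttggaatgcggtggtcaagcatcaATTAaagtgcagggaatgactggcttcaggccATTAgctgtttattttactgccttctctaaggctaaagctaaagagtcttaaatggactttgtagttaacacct
downstream of Shox2, chr3:66798495-66798694: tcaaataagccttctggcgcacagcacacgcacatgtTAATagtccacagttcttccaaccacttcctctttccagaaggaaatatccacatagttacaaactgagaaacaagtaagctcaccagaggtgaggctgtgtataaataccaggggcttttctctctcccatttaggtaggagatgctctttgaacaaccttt
between Mtx2 and Hnrnpa3, chr2:75423933-75424132: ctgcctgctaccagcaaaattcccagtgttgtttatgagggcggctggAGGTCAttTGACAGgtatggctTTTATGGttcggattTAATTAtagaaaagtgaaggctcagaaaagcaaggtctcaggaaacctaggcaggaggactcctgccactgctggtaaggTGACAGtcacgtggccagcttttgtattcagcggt
upstream of Hoxa13, chr6:52271129-52271328: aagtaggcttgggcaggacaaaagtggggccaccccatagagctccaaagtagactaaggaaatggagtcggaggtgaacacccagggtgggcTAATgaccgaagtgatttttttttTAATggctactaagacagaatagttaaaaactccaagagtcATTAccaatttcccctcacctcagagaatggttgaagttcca
fallen peak between Atp5g3 and Hoxd13, chr2:74190706-74190905: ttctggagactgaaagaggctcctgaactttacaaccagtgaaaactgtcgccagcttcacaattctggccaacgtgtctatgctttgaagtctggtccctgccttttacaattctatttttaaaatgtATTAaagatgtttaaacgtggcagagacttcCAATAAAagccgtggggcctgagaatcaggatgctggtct

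The *Tgfbr3* line held 8 matches to ATTA and 2 to TAATTA, each of which counts as 2 matches to ATTA, and the *Dner* line held 4 matches to ATTA. The *Castor2* line held none of the marked motifs. The member at *Hnrnpa3* was the only 1 of the 1458 with all 4 longer motifs in its central 200 bases, and it held 2 matches to TGACAG. The fallen peak, on the other side of the HoxD cluster, held 1 match to CNATAAA and 1 to ATTA.

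Across the members, the median rLog value was 5.85 in the first and 5.86 in the second WT library, and 6.65 in each of the *Hox13*-/- libraries. The lowest WT value of any member was 4.74 and the highest 8.52. In the mutants the values ran from 5.46 to 9.31. The difference had a median of 0.73 and reached 1.59, with quartiles at 0.65 and 0.86. In 626 members (42.9%) it was under 0.70, and in 169 (11.6%) it was 1 or more, which is 2-fold. Most gains were thus under 2-fold on the rLog scale, on which shrinkage makes differences smaller.

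**Figure D1:**
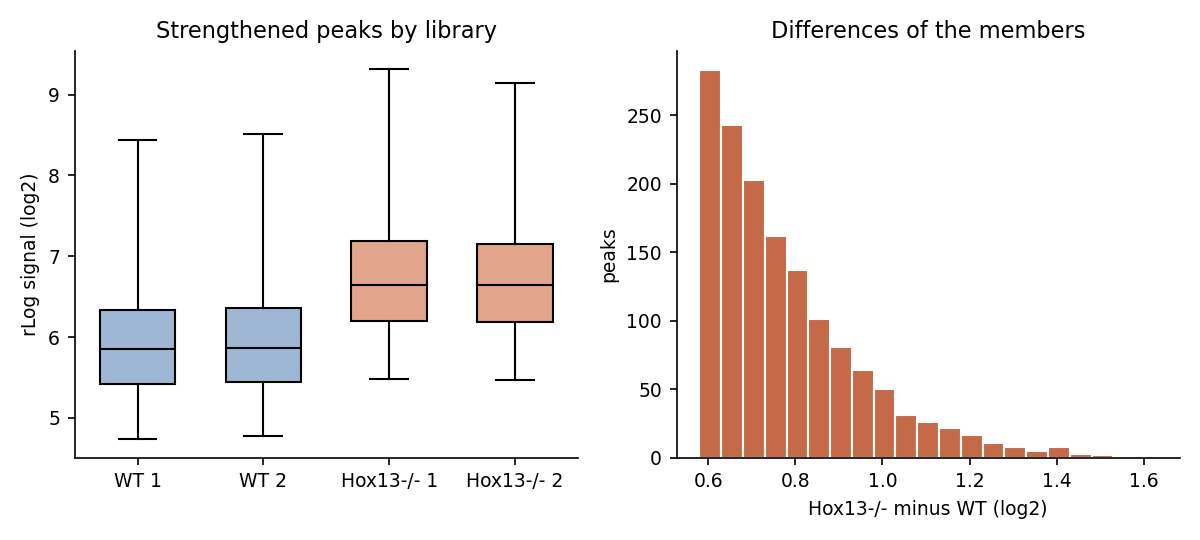
Left, rLog signal (log2) of the 1458 members in each library, with the median as a line, quartiles as a box and whiskers to the lowest and highest member. Right, number of members by their difference, *Hox13*-/- minus WT; the medians were 5.85 and 5.86 in WT and 6.65 in both mutant libraries, and most differences lay near the minimum of 0.58 that the rule set.

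The libraries of 1 genotype lay close together at the members. The median absolute difference between the 2 WT libraries was 0.15 and that between the 2 *Hox13*-/- libraries 0.11, against 0.13 and 0.12 at the other open distal peaks. The lower mutant library exceeded the higher WT library by a median of 0.59 and by at least 0.21. No peak that met the other 3 conditions was lost to the requirement that the genotypes did not overlap. The standard error of a member's difference, from limma fitted to all 61954 peaks, ran from 0.12 to 0.13.

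Peaks were also chosen on 1 pair of the same 4 libraries and read in the other pair. With the first library of each genotype alone, 1589 peaks passed the level and difference minima, and their median difference in the second pair of libraries was 0.64. Of these, 1571 (98.9%) were higher in the second mutant library than in the second WT library, and 923 (58.1%) reached 0.58 there. Chosen on the second pair, 1519 peaks had a median difference of 0.66 in the first, and 1504 (99.0%) were higher in the mutant. Among all open distal peaks of the same pairs, 58.9% and 61.5% were higher. The rLog values were shrunk with all libraries together, and the same 4 libraries chose the members. These readings are therefore not independent of the choice and do not test the rise.

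Rises of this size made up 11.0% of the open distal peaks, and falls of the same size, under the mirrored rule, made up 4.76% (633 peaks, called fallen peaks here). Over all 61954 peaks, regardless of level and position, 3.42% (2120 peaks) rose by the same measure. Of these 2120 peaks, 141 (6.65%) had their midpoint within 1 kb of a start site, against 34.6% of all peaks, and 1979 lay farther away. By limma with a Benjamini-Hochberg adjusted p under 0.05, 11.4% of all peaks were higher in the mutant and all 1458 members were among them, which follows from the rule. The share of open distal peaks that were members was 9.01% at a WT mean from 5 to under 5.5, 13.5% from 6 to under 6.5, and 7.58% at 7 or higher.

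**Figure D2:**
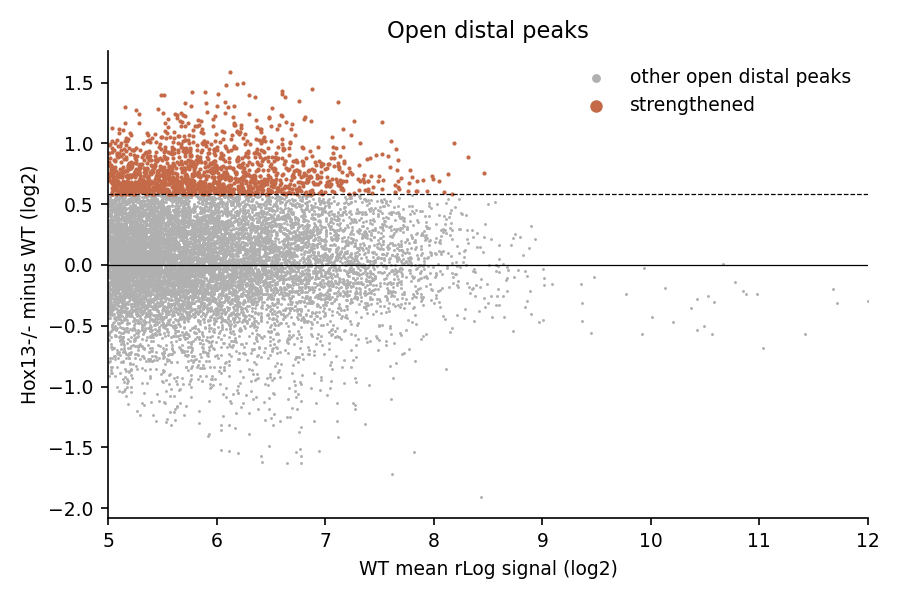
Difference, *Hox13*-/- minus WT (log2), against the mean rLog signal of the 2 WT libraries (log2) for the open distal peaks, with members in orange and the dashed line at 0.58. The members spanned WT means from 5.00 to 8.47, no peak with a higher WT mean was a member, and 25 peaks with a WT mean over 12 are not drawn.

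The word open rests on the signal minimum and not on a called peak. Of the 1458 members, 512 (35.1%) had no peak called by the authors in either WT library, 457 (31.3%) had one in 1 WT library and 489 (33.5%) in both. Among all open distal peaks, 9.68% had no WT call and 67.0% had a call in both. The 512 uncalled members had a median WT mean of 5.36, and the 489 called in both had one of 6.53. Almost all members, 1456 of 1458, were called in both mutant libraries, as were 87.2% of all open distal peaks. The rule takes peaks that are higher in the mutant libraries and so favours such calls.

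The members were long peaks. Their median length was 575 bp, with a range from 244 to 1814 bp, against 429 bp for all open distal peaks and 421 bp for the fallen peaks. Peaks under 350 bp were members in 1.0% of cases and peaks of 700 bp or more in 24.6%. A peak's deposited length comes from merging the calls of all libraries, the mutant ones included, and so moves with the mutant signal. The part of length in the difference was not tested.

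In position the members lay far from protein-coding start sites. The median distance to the nearest protein-coding start site was 79.4 kb, against 47.8 kb for all open distal peaks, 63.1 kb for the fallen peaks and 37.6 kb for 5467 stable open distal peaks, whose difference was within 0.2 of 0. Of the members, 633 (43.4%) lay over 100 kb from any such start, and 70 (4.80%) lay within 5 kb. The shares among all open distal peaks were 31.2% and 10.6%. Of the members, 723 (49.6%) were intergenic, 705 (48.4%) were intronic and 30 (2.06%) fell in exons, against 46.4%, 49.4% and 4.24% of all open distal peaks. They were found on every autosome, where between 9.40% and 12.9% of the open distal peaks were members.

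Base composition differed mainly in CpG dinucleotides. The median GC content of the central 200 bp was 47.5% in members, 49.0% in all open distal peaks and 42.5% in fallen peaks. The median ratio of observed to expected CpG was 0.216 in members and 0.276 in all open distal peaks. Sequence masked as repeats filled over 50% of the window in 10 members (0.686%), against 1.26% of all open distal peaks.

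Motif shares of the members were higher than those of all open distal peaks for 3 of the motifs printed above, and lower for the HOX13-type motif. TAATTA, the palindrome bound by paired and other non-posterior homeodomain proteins, occurred within the central 200 bp of 305 members (20.9%), against 11.8% of all open distal peaks, 9.0% of fallen peaks and 8.01% of all 61954 peaks. AGGTCA occurred in 223 members (15.3%), against 10.0%, 8.37% and 9.39%. TGACAG occurred in 239 members (16.4%), against 12.4%, 9.64% and 12.1%. CNATAAA, the HOX13-type motif, occurred in 234 members (16.0%), against 19.3% of all open distal peaks, 44.1% of fallen peaks and 12.7% of all peaks. In stable open distal peaks the share of CNATAAA was 16.9%, close to that of members. Searched over whole peaks, which are longer among the members, it was in 35.9% of members and 33.0% of all open distal peaks, so its direction turned with the window, while TAATTA was in 38.1% and 21.0%. Each motif was searched on both strands, and no test was run, since peaks of the same libraries are not replicates.

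Most of the other 16 motifs searched had like shares in members and in all open distal peaks. The E-box CAGCTG was found in 19.0% and 19.1%, the AP-1 motif TGANTCA in 5.76% and 5.31%, the TEAD motif ACATTCC in 6.10% and 6.02%, and the forkhead motif GTAAACA in 4.39% and 4.13%. The SOX motif ACAAAG occurred in 17.1% and 16.0%, and the NFI motif TTGGCA in 16.5% and 14.1%. Lower among members were the TWIST/HAND-type E-box CAGATG, at 18.2% against 21.1%, and the GC-rich KLF/SP motif GGGCGGG, at 1.71% against 4.70%. The GLI motif GGGTGGTC, the hedgehog response element, was rare, with 14 members (0.960%) against 0.497%. The low KLF/SP share stood beside the low CpG ratio of the members.

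An unbiased count of all 2080 words of 6 letters, joined with their reverse complements, gave the same emphasis. Ranked by the share of members minus the share of the other 11831 open distal peaks, the first word was AATTAG, in 25.4% of members and 12.7% of the others. TAATGA followed at 27.5% and 16.0%, AATTAA at 27.7% and 16.6%, and TAATTA at 20.9% and 10.6%. Of the first 10 words, 8 held ATTA on one of the strands. AGGTCA ranked 15th and the reverse complement of TGACAG 32nd. At the bottom stood CCGCCC, in 3.43% of members and 9.95% of the others.

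The core ATTA was then counted alone, after this ranking had been seen. The central 200 bp of a member held 2.37 matches on average, against 1.63 in the other open distal peaks, 2.04 in fallen peaks and 1.44 in stable peaks. At least 4 matches were present in 354 members (24.3%) and in 13.0% of the others. Because ATTA is AT-rich, the count was repeated within bands of GC content. Between 47% and 52% GC the means were 2.07 in members and 1.52 in the others, and between 52% and 60% GC they were 1.45 and 0.850.

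TAATTA was also the more frequent in members within every one of 5 bands of peak length, 5 bands of GC content and 5 bands of WT signal. Over the length bands its share ran from 15.4% to 23.7% in members and from 7.86% to 13.0% in the other open distal peaks. AGGTCA was more frequent in members in all 15 bands too, and TGACAG in 14 of them, the exception being peaks under 350 bp, of which 39 were members. For AGGTCA the gap was narrower at high WT signal. Its shares were 18.9% and 9.25% at a WT mean from 5 to under 5.5, and 9.26% and 8.36% at 7 or higher. CNATAAA was less frequent in members in all 15 bands, by little in some, as with 9.31% against 9.72% from 52% to under 60% GC. The other open distal peaks include the fallen peaks, which are rich in this motif. Stable peaks held CNATAAA in 16.9%, close to the 16.0% of members.

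Read along the whole scale of differences, the shares moved in steps. TAATTA occurred in 8.04% of open distal peaks with a difference from -0.2 to 0, in 13.8% from 0.2 to 0.4, in 15.2% from 0.4 to 0.58 and in 21.8% from 0.58 to 0.8. It did not climb further, with 17.2% among the 169 peaks at 1 or more. AGGTCA climbed to the end of the scale, from 7.96% between -0.2 and 0 to 18.9% at 1 or more. CNATAAA was in 45.2% of the peaks that fell by over 1, in 15.5% between -0.2 and 0, in 18.2% from 0.2 to 0.4, in 16.5% from 0.58 to 0.8, in 17.8% from 0.8 to 1 and in 10.1% at 1 or more.

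**Figure D3:**
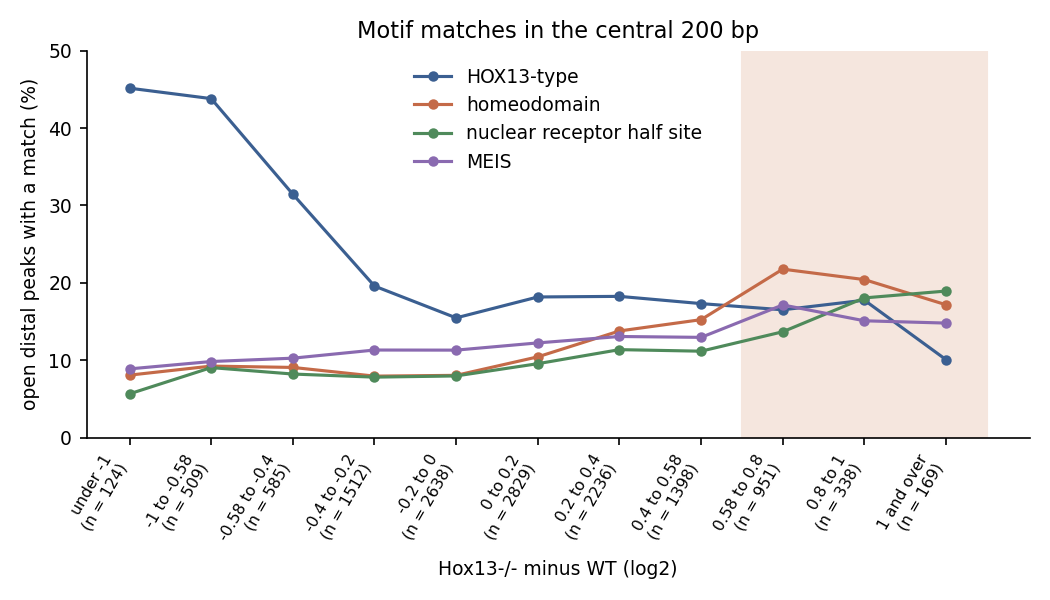
Share of open distal peaks (%) with a match in the central 200 bp, by difference between genotypes (log2, number of peaks under each bin), with the bins of the members shaded. HOX13-type matches were at 45.2% at the left, between 15.5% and 18.2% from -0.2 to 1, and at 10.1% in the last bin, while homeodomain matches rose from 8.06% to a highest value of 21.8%.

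TAATTA was centred on the members. In bins of 50 bp, 5.83% and 5.97% of members held a match on either side of the midpoint, against 2.19% and 1.85% in the bins at the ends, 475 bp away. In stable peaks the central bins held 2.82% and 2.76%. CNATAAA had its centre in the fallen peaks, with 15.0% and 15.2%, and in members it reached 5.01% and 4.53%, close to the 5.03% and 4.70% of stable peaks. The TGACAG profile of members was nearly flat, at 4.25% and 3.77% in the middle and 3.36% and 4.12% at the ends. AGGTCA reached 3.70% and 4.60% of members in the middle, against 2.19% of stable peaks in both bins.

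**Figure D4:**
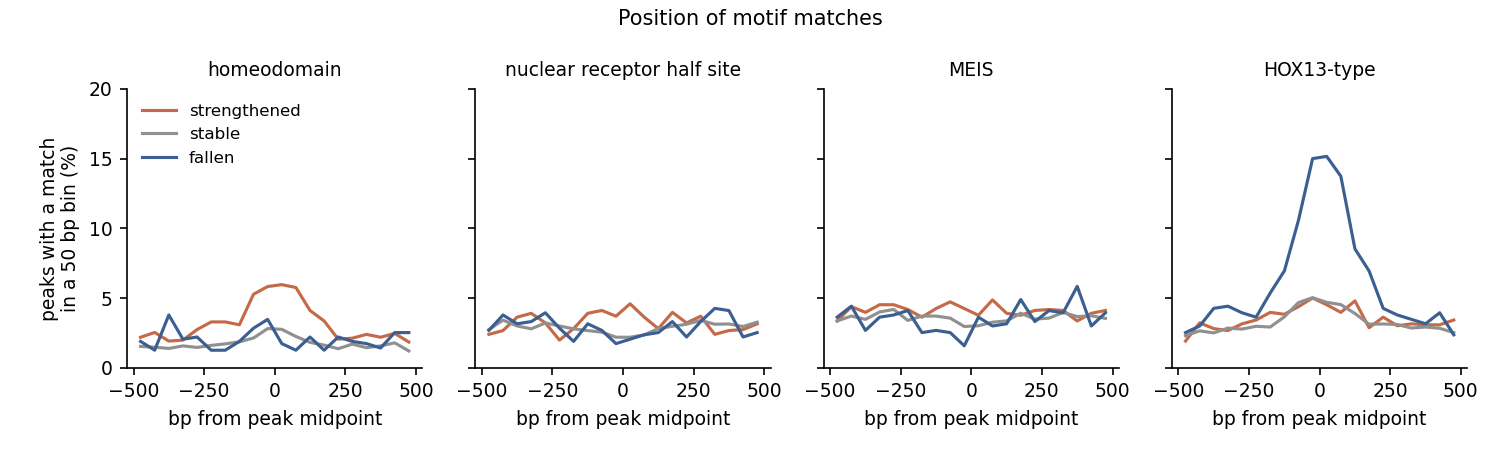
Share of peaks (%) with a match in each 50 bp bin against the distance of the bin from the peak midpoint (bp), for members, stable open distal peaks (difference within 0.2 of 0) and fallen peaks. Homeodomain matches peaked at the midpoint of members, at 5.97%, and HOX13-type matches at that of fallen peaks, at 15.2%.

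Pairs of TAATTA with another motif in 1 peak were more frequent in members than in the other open distal peaks. TAATTA alone was in 20.9% and 10.6%, which raises the share of each pair. Pairing beyond the shares of the single motifs was not tested. TAATTA and TGACAG were both present in 53 members (3.64%, against 1.21% of the others), TAATTA and CNATAAA in 48 (3.29% against 2.67%), and TAATTA and AGGTCA in 35 (2.40% against 0.904%). By their letters, a TAATTA match cannot overlap a CNATAAA or TGACAG match on the same bases, so these pairs were separate matches. None of the 4 motifs was found in 675 members (46.3%), against 57.7% of the other open distal peaks and 44.1% of fallen peaks. Among members with no WT call, TAATTA was in 20.5% and AGGTCA in 17.8%, and among those called in both WT libraries in 19.2% and 12.1%.

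The largest differences lay at sites of varied genes, each given by the nearest protein-coding start site, which need not be the site's target. The first was in an intron of *Dab1*, an adaptor of reelin signalling, at chr4:104550496-104551109, with 6.07 and 6.16 in WT and 7.61 and 7.80 in *Hox13*-/-, a difference of 1.59 ± 0.13 (SE). The second, 619.1 kb upstream of *Agtr1b* at chr3:20985848-20986759, had 6.20 and 6.28 in WT and 7.76 and 7.72 in the mutant. The third, in an intron of *Tgfbr3*, the TGF-β co-receptor betaglycan, at chr5:107251627-107252515, had 6.13 and 6.24 in WT and 7.66 and 7.69 in the mutant. In all 3 the genotypes were separated by over 1 unit while replicates differed by under 0.2.

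The remaining 7 of the first 10 had differences between 1.40 and 1.48. They were a site 617.1 kb upstream of *Castor2*, one 167.1 kb downstream of the start of *Vav3*, which encodes a guanine nucleotide exchange factor, and an intronic site of *Tenm4*, which encodes a teneurin. Further ones were an intronic site of *Mfsd4b5*, a site 159.6 kb from the start of *Cd83*, one 71.1 kb from that of *4933412E24Rik*, and one 125.2 kb upstream of *Mycn*, a MYC family regulator of proliferation. The *Mycn* site had 5.96 and 6.07 in WT and 7.45 and 7.39 in the mutant, and its central 200 bp held 2 matches to AGGTCA and 1 to TGACAG.

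The strongest members in WT were long. The highest was a peak of 1814 bp at chr6:51196096-51197909, 235.7 kb upstream of *Nfe2l3*, with 8.42 and 8.52 in WT and 9.31 and 9.13 in the mutant. An intronic site of *Dner*, a transmembrane protein of the Notch pathway, had 8.44 and 8.20 in WT and 9.26 and 9.14 in the mutant. A peak of 1731 bp at chr2:75208263-75209993, on the telomeric side of the HoxD cluster, had 8.24 and 8.14 in WT and 9.27 and 9.12 in the mutant. Intronic sites of *Eif3h*, a translation initiation factor subunit, and *Stard13*, a GTPase activating protein, followed with WT means of 8.17 and 8.13. Their differences were 0.59 and 0.75.

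Members were spread over many genes. The nearest protein-coding start belonged to 1099 genes, of 5299 with any open distal peak, and 853 of them had 1 member, 172 had 2 and 74 had 3 or more. A fallen peak was assigned to 153 of the 1099 as well. *Nfib*, a nuclear factor I gene, had most, with 7 members among 21 open distal peaks, along with 2 that fell. *Auts2* had 6 of 33, *Haao* 6 of 17, *Hnrnpa3* 6 of 16 and *Npvf* 6 of 14. These genes were picked for their counts, and 11.0% of all open distal peaks were members. At *Nfib* the 7 differences ran from 0.66 to 1.14, and the largest, 29.3 kb upstream of the gene, had 5.72 and 5.87 in WT and 6.99 and 6.89 in the mutant.

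Some members stood in runs. Of the 1458, 291 had another member within 50 kb, in 132 runs, of which 20 held 3 or more. No such count is given for open distal peaks in general, so grouping beyond theirs cannot be judged. The longest run was of 6 members over 90.5 kb upstream of *Haao* at chr17:83895290-83985745, where 11 open distal peaks lay, with differences from 0.60 to 0.92. The next held 5 members over 29.5 kb at chr6:50977045-51006575, far upstream of *Npvf*, with differences from 0.60 to 0.97. Runs of 4 lay upstream of *Hnrnpa3* at chr2:75350734-75440284 and of *Plxnc1* at chr10:95075124-95117960, and at *Plxnc1* the 4 members were all the open distal peaks present.

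Both the *Hnrnpa3* and the *Npvf* runs lay in gene-poor domains that flank Hox clusters. The HoxD cluster sits between 2 regulatory landscapes, of which the centromeric one is known to drive *Hoxd13* in the digits and the telomeric one the earlier, proximal expression of *Hoxd* genes. On the telomeric side, between *Mtx2* and *Hnrnpa3* (chr2:74878431-75659261), 8 of 25 open distal peaks were members and none fell by the mirrored rule. On the centromeric side, between *Atp5g3* and *Hoxd13* (chr2:73911326-74668310), none of 20 was a member and 5 fell. The median difference was 0.28 on the telomeric and -0.25 on the centromeric side. Of all open distal peaks, 11.0% were members and 4.76% fell. These intervals were drawn after the members had been seen, and the contrast is a description of 1 locus.

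The 8 telomeric members lay from 480.7 to 844.5 kb beyond the start of *Hoxd13*, with differences from 0.64 to 1.31. The largest gain, at chr2:75350734-75351824, had 6.08 and 6.22 in WT and 7.41 and 7.51 in the mutant, and no peak was called there in either WT library. The peak at chr2:75439299-75440284 had 7.69 and 7.51 in WT and 8.58 and 8.66 in the mutant, and was called in both. The member whose sequence holds all 4 longer motifs, at chr2:75423820-75424247, had 6.14 and 6.26 in WT and 6.92 and 6.75 in the mutant, the smallest gain of the 8.

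**Figure D5:**
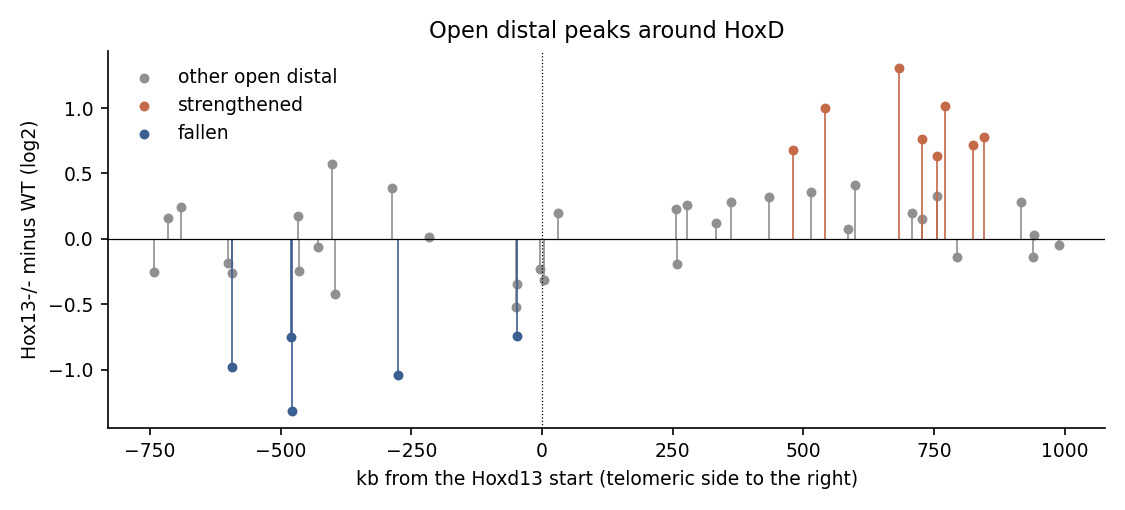
Difference, *Hox13*-/- minus WT (log2), of open distal peaks against their distance in kb from the *Hoxd13* start, with the telomeric side to the right. The 8 members, from 0.64 to 1.31, stood on the telomeric side between 480.7 and 844.5 kb, and the 5 fallen peaks on the centromeric side.

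Members also lay beside *Hoxa13*. Between *Hoxa13* and *Tax1bp1* (chr6:52260880-52713729), an interval drawn after the members had been seen, 4 of 11 open distal peaks were members and none fell. The share of members among all open distal peaks was 11.0%. A member 10.3 kb upstream of *Hoxa13*, at chr6:52270884-52271574, had 5.81 and 5.56 in WT and 6.98 and 6.86 in the mutant, a difference of 1.23 ± 0.13 (SE). Another 15.7 kb upstream had a difference of 0.61. The peak at the *Hoxa13* start itself had 5.71 and 5.95 in WT and 5.66 and 5.84 in the mutant, overlapping values that do not check the genotype labels.

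Genes of limb development were read through 8 lists, and the share of members among the open distal peaks assigned to each list is to be set against 11.0% for all. For genes of proximal and early limb identity it was 7 of 44 (15.9%), with 3 members near *Meis1*, 2 near *Shox2* and 1 each near *Irx3* and *Irx5*. *Shox2*, a homeobox gene of the proximal limb segment, had a member 179.9 kb from its start with 5.85 and 6.10 in WT and 6.86 and 6.93 in the mutant. The member at *Irx5*, an Iroquois homeobox gene of the early limb, had 5.73 and 6.16 in WT and 6.79 and 6.63 in the mutant. All values of the mutant libraries lay above those of WT, as the rule required.

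For distal limb genes the share was 17 of 99 (17.2%), beside 6 peaks that fell. *Tbx3*, a T-box gene expressed at the limb margins, had the largest gain of any listed gene after *Tgfbr3*, at chr5:119379998-119380663, 290.3 kb upstream, with 5.60 and 5.41 in WT and 6.92 and 6.90 in the mutant. No WT library had a called peak there. *Epha3* had 3 members and *Efna5*, *Msx2* and *Sall1* had 2 each. Distal and proximal genes thus both had members.

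The list of anterior-posterior patterning and hedgehog genes had 7 of 89 (7.87%). An intronic site of *Gli2*, a transcription factor of hedgehog signalling, had 6.33 and 6.39 in WT and 7.52 and 7.59 in the mutant. A site 119.7 kb upstream of *Gli3*, the main repressor of the pathway in the limb, had 6.77 and 6.95 in WT and 7.72 and 7.87 in the mutant. Skeletal, joint and tendon genes had 18 of 142 (12.7%), of which 7 were those of *Nfib* and 3 near *Sox9*, the master regulator of cartilage. The member of largest gain outside *Nfib* was 24.0 kb upstream of *Osr2*, with 5.21 and 5.15 in WT and 6.22 in both mutant libraries.

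Signalling lists had shares on either side of the background. TGF-β and BMP genes had 7 of 106 (6.60%), 3 of them near *Tgfbr3*, and 10 fallen peaks. Next to *Tgfbr3* the largest gain was 378.3 kb upstream of *Id2*, an inhibitor of basic helix-loop-helix factors, at 0.84 ± 0.13 (SE). WNT genes had 16 of 147 (10.9%), 4 of them near *Wnt5a*, a ligand needed for limb outgrowth, with the largest gains near the receptor gene *Fzd1*, at 0.95 ± 0.13 (SE), and the antagonist gene *Dkk2*, at 0.88 ± 0.13 (SE). The list also holds *Tcf4*, with 2 members, a symbol that denotes an E protein.

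FGF genes had 5 of 57 (8.77%). The largest gain was 34.1 kb from the start of *Fgf18*, with 6.67 in both WT libraries and 7.66 and 7.70 in the mutant, and the next near the receptor gene *Fgfr2*, with 6.07 and 6.00 in WT and 6.81 and 7.04 in the mutant. Retinoic acid genes had 1 member among 36 open distal peaks (2.78%), near *Cyp26b1*, which encodes a retinoic acid-degrading enzyme, with a difference of 0.58, just at the minimum. Each list holds few peaks, and no list was tested.

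Promoter peaks of the same genes were read beside the members. Among 884 genes that had a member assigned and a peak within 1 kb of a protein-coding start, the strongest promoter peak had a median difference of -0.13, and 7 (0.792%) differed by 0.58 or more upwards. Among all 13030 genes with a promoter peak the median was -0.14 and 29 (0.223%) did so, and among 4081 genes with an open distal peak 16 (0.392%). Of the genes at the 10 largest differences, 8 had a promoter peak, and in 6 of them it was lower in both mutant libraries without overlap, as it was for 51.4% of all genes with a promoter peak. At *Mycn* the values were 6.67 and 6.49 in WT and 6.22 and 6.04 in the mutant. At *Nfib* the promoter peak had 6.86 and 6.60 in WT and 6.34 and 6.66 in the mutant, and at *Tbx3* 7.65 and 7.62 against 7.47 and 7.77. At *Tgfbr3* the values were 6.79 and 6.55 in WT and 6.68 and 6.84 in the mutant. At *Nfib*, *Tbx3* and *Tgfbr3* the genotypes overlapped.

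Promoter peaks of cell type markers were read in the same way, as the distal bud holds mesenchyme, ectoderm, vessels, nerves and muscle precursors. All 5 limb mesenchyme markers had a promoter peak, with WT means from 5.61 to 6.89 and differences from -0.40 at *Twist1* to 0.21 at *Prrx1*. Only 2 of 8 ectoderm markers had one, at WT means of 2.80 and 3.56, and the differences were -0.15 and 0.01. For endothelium and blood 2 of 8 had one, *Kdr* and *Tek*, with differences of -0.01 and -0.02. *Myod1* was the only one of 5 muscle precursor markers, at 0.05, and for neural crest and Schwann cells *Erbb3* had one, at -0.04. No marker promoter named here differed by 0.58 or more. Markers without a promoter peak included the defining genes *Pecam1*, *Gata1*, *Pax3*, *Sox10* and *Trp63*, and the part of cell composition in the members was not tested. Among the distal peaks assigned to markers, members were 1 of 22 open distal peaks for limb mesenchyme, 2 of 5 for muscle precursors (*Myod1* and *Pax3*), 1 of 6 for ectoderm (*Krt8*) and 1 of 13 for endothelium and blood (*Cdh5*).

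At the edges of the rule, members and excluded peaks were alike in size. Just inside the difference minimum stood sites near *Cyp2j5*, *Slc36a4* and *Lrba*, and just outside sites near *Nabp1*, *Sall1* and *Cd47*, all with 0.58 after rounding. The *Sall1* site, 447.2 kb upstream, had 5.70 and 6.02 in WT and 6.52 and 6.36 in the mutant. On the WT level, sites near *Brd7* and *Arhgap24* were inside at 5.00, and sites near *Dagla* and *Ctsd* were outside at 5.00 after rounding, with differences of 0.65 and 0.98. By distance, sites near *Tifab* and *Jade1* were kept at 1018 and 1023 bp from the nearest start site, and sites assigned to *Pmaip1* and *Cd24a* were left out at 984 and 990 bp.

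The 521 distal peaks that met the rule except for a WT mean under 5, called newly opened here, resembled the members in most features. Their median distance to a protein-coding start was 76.9 kb, TAATTA occurred in 19.8% of them, AGGTCA in 14.4%, TGACAG in 15.2% and CNATAAA in 15.5%. They held 2.33 matches to ATTA per 200 bp. Their median length was 351 bp, shorter than the 575 bp of the members, and 97.9% had no peak called in either WT library. The WT level of 5 thus separated sites with like motif shares.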

How the data were processed

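Per the labels and the study's methods, the authors mapped the reads (mm10, Bowtie2 2.3.1), called the peaks of each library by MACS2, joined the calls by HOMER 4.9.1 and ran DESeq2 on them. For each merged peak they deposited log2-scale rLog values per library, scaled by size factors and shrunk, so read numbers per peak and the depth behind a value are unknown. The handling of duplicates and of the Tn5 offset is not given in the sources used here. Deposited columns with the authors' fold changes, p-values and adjusted p-values were not used.

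All 61954 peaks entered limma 3.58.1 in R 4.3.3 (genotype term, variance trend, two-sided, Benjamini-Hochberg), which was tested on simulated data and recovered 200 of 200 peaks changed by 1. In that run 14 unchanged peaks were called as well. The simulated noise followed the variances that limma had fitted. Most members differed by under 1, and recovery of such smaller changes was not tested. Here limma gives standard errors and background shares only. With 2 libraries per genotype an exact permutation test cannot go below 0.33. Each library is 1 embryo, and the labels give no batch.

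The midpoint set a peak's place in GENCODE M21 (start sites of all transcripts) and the mm10 genome (GRCm38.p6). Each peak was assigned to the nearest protein-coding start. Motifs were exact letter matches on both strands. Lower-case genome letters were taken as repeats. Named peaks were the 10 largest differences, the 5 highest WT means, those at the edges of the rule, the 2 largest of each gene list, the 5 genes with most members and the 3 largest runs, with a tie for the last of these. The members, lists and motifs were chosen with earlier results of these data known. Figures used matplotlib 3.10.9 and tables pandas 2.3.3 in Python 3.11.15. A few genes are not reported here.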

Additional observations from a re-analysis of the deposited data

How the results depend on the processing

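The number of members was 1275 with median centring of the libraries and 1355 with quantile normalization, of which 1264 and 1293 were among the 1458. It was 169 with a difference minimum of 1 and 608 with a WT mean of at least 6, since those settings are stricter by construction. With start sites of protein-coding genes only it was 1535, with the midpoint over 5 kb from every start site 1226, and with GENCODE basic transcripts, an alternative chosen after seeing the data, 1486. Leaving out 1 library at a time gave 1481 to 1542, of which 1211 to 1289 were among the 1458.

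Over all peaks, limma (adjusted p under 0.05) called 7040 higher and 5146 lower in *Hox13*-/-, a split of 57.8% higher that became 46.9% with median centring (6017 and 6811). The upper 50% of peaks by mean signal gave 3268 lower, with fewer peaks tested. Leaving out 1 library gave 4650 to 5008 higher and 2865 to 3552 lower, with fewer samples in the fit. With the replicate number as a block the counts were 7013 and 4967. The replicate numbers did not pair the samples, since the deviations of same-numbered libraries had a correlation of -0.011 across peaks.

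The share of members with a HOX13-type match, 16.0% (95% Wilson interval 14.25 to 18.02, counting error only), was 35.9% when whole peaks were searched, a larger window, against 33.0% of all open distal peaks, and 10.1% with a difference minimum of 1, where the cause was not tested. The intronic share of 48.4% was 42.2% with introns of protein-coding genes only, which excludes other genes, and 45.0% with a difference minimum of 1. Depth per peak is unknown, so small differences at weak peaks could not be judged.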
